A study of Mus musculus with 4 samples.

Results

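The 9 genes described here make, finish, load or convert the ceramides and the cholesterol sulfate of the skin barrier: Sptlc1, Sptlc2, Elovl4, Degs1, Degs2, Ugcg, Abca12, Smpd1 and Sult2b1. They were taken by the gene name printed on the array for non-control probes, which gave 11 probes on 20 spots, of 39429 probes for 30340 genes or targets in all. All 9 were well above background on every array. The groups were 4 kinds of primary mouse keratinocytes, the epithelial cells of the epidermis, with 1 array each: Pla2g2f-/- cells with CaCl2, Pla2g2f-/- control cells, Pla2g2f+/+ cells with CaCl2 and Pla2g2f+/+ control cells. Pla2g2f encodes a secreted phospholipase A2, and the series asks how its loss bears on keratinocyte differentiation. All cells came from whole skin of newborn C57BL/6 mice, were freed with 0.05% collagenase A and grown for 3 days, and were then kept for 48 h with or without 1 mM added CaCl2. Which stretch of Pla2g2f the allele lacks is not stated. Each RNA was a pool from 6 mice of a genotype, so an effect of genotype and one of the preparation cannot be told apart. With a single array for every group, differences have no replicate check and no p-value is given.

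Ceramides are built from serine and a fatty acid, lengthened and hydroxylated in keratinocytes, and carried by lamellar bodies to the outermost layers as glucosylceramide and sphingomyelin. There they are turned back into ceramide and stack with cholesterol and free fatty acids into the water barrier. Cholesterol sulfate is made in the same differentiating cells and is known to slow the shedding of the surface layer. Added calcium is the usual trigger of differentiation in such cultures.

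Levels are given as relative signal, the background-subtracted intensity divided by the 75th percentile of the array, and differences as log2 of relative signal or as folds. A gene was counted at 2-fold. The scanner software's own error gave 0.20 log2 for each difference of 2 arrays and 0.29 for a difference of 2 responses, and it covers the spot and not the culture. Brightness depends on the probe, so levels are compared only within a gene.

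The promoters of the 4 genes that were at least 2-fold higher with calcium in both genotypes are shown here because these genes were higher together. They are the 250 bases before the annotated start, on the strand of the gene, from RefSeq (GRCm38.p6). They lie on the minus strand at chr7:45742479-45742728 for the second of 2 listed starts of Sult2b1, chr9:83806306-83806555 for Elovl4, chr12:108702307-108702556 for Degs2 and chr1:71414911-71415160 for Abca12. Capitals mark a match to the AP-1 motif. The first Sult2b1 start is not shown and held no such match.
Sult2b1, second start: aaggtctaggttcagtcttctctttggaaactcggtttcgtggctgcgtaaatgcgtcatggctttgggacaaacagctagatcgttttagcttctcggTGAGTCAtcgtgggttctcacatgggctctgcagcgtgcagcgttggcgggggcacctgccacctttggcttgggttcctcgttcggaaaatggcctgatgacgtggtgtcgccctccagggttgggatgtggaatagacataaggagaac
Elovl4: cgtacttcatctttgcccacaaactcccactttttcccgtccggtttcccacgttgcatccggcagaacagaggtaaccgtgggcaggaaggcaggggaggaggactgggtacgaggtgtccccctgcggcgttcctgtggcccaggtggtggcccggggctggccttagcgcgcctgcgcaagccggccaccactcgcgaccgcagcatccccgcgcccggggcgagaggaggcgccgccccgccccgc
Degs2: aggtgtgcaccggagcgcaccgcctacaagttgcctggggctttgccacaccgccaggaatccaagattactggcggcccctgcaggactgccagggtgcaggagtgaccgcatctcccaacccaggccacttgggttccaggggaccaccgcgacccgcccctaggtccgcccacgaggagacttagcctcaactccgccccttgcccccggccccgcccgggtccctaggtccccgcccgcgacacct
Abca12: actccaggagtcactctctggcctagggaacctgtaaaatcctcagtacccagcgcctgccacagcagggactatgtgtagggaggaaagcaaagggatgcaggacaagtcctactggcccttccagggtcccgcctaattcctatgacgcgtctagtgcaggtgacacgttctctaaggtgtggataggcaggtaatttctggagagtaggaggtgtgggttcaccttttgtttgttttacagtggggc

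Both strands of the promoter window, 250 bases before and 50 after each start, were searched for TGANTCA, the AP-1 motif, AACNNGTT, a grainyhead motif, and TATAAA. The members have 10 listed starts, 2 of them for Sult2b1. The only match to any of the 3 motifs was TGAGTCA at -151 to -145 of the second Sult2b1 start. Among 32851 promoters of this length in the table, 7.81% held the AP-1 motif, 4.2% the grainyhead motif and 13.6% TATAAA. A match is a description of letters, and whether the array probe separates transcripts from the 2 Sult2b1 starts was not examined.

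The probes of Sult2b1 and Abca12, and the brighter of 2 for Sptlc2, are shown as the oligos that gave the values below. They are given in the sense of the transcript, and each can be read through without a stop codon in at least 1 frame. In mm9 they lie on the minus strand at chr7:52985450-52985509, chr1:71289874-71289933 and chr12:88683609-88683668.
Sult2b1 probe: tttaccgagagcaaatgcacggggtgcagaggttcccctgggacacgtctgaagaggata
Abca12 probe: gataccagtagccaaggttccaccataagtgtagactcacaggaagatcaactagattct
Sptlc2 probe: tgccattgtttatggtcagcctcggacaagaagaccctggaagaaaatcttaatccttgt

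With added calcium 4 of the 9 genes were at least 2-fold higher in both genotypes. These were Sult2b1, the sulfotransferase that makes cholesterol sulfate, Elovl4, which elongates the longest fatty acids of barrier ceramides, Degs2, which hydroxylates ceramide precursors, and Abca12, the lipid transporter of lamellar bodies. The genes for the first step of synthesis, for the general desaturase Degs1 and for acid sphingomyelinase differed by less than 2-fold. In −/− cells the 4 of 9 stand against 2.99% of 21427 genes at least 2-fold higher, and in +/+ cells against 2.47% of 21127. None of the 9 was 2-fold lower, a call made for 0.602% of genes in −/− and 1.01% in +/+ cells. The median of the members was 0.43 log2 in −/− cells, where the median gene had −0.03, and 0.71 in +/+ cells, where the median gene had −0.07.

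**Figure D1:**
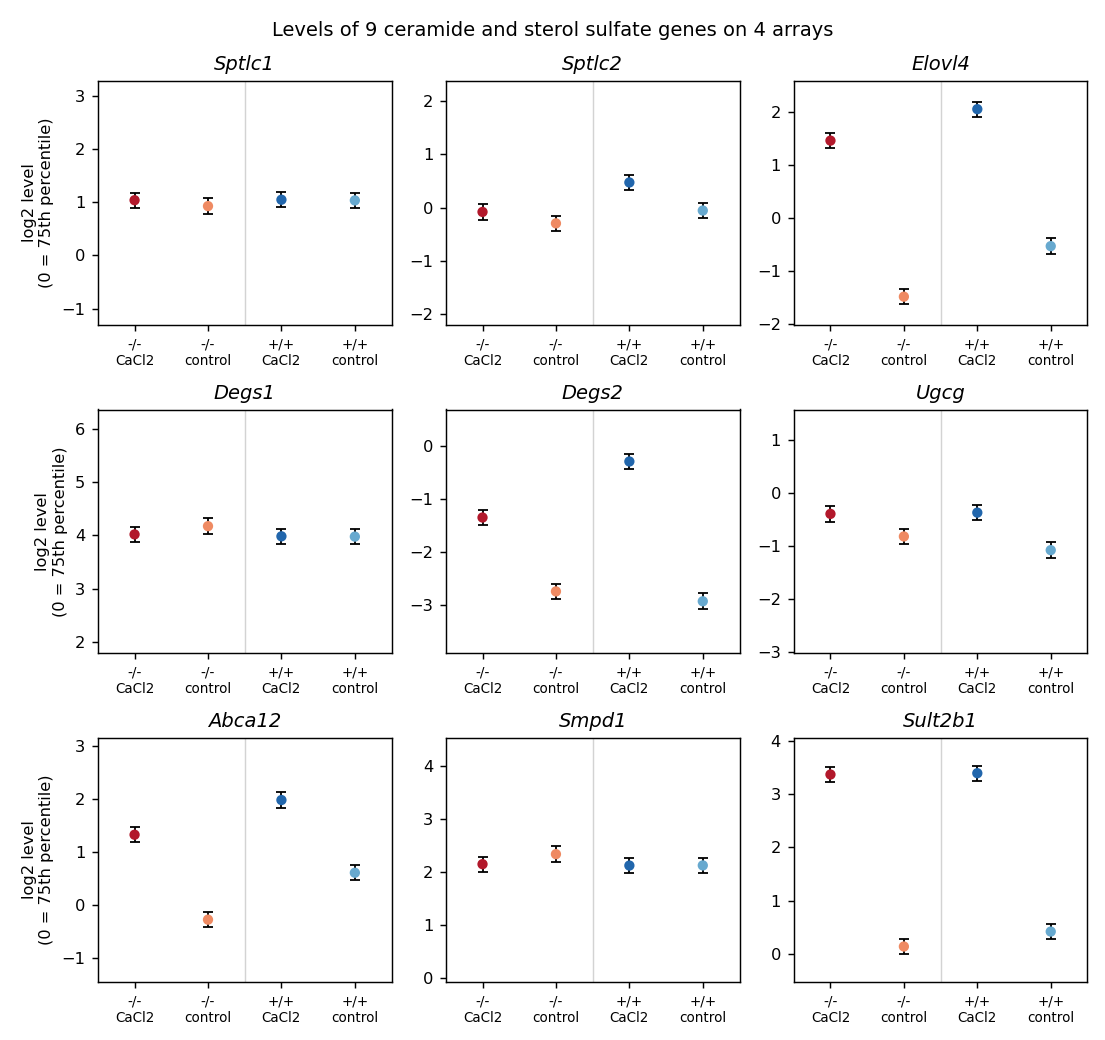
Level of each of the 9 genes on the 4 arrays, as log2 of the signal over the 75th percentile of the array. Each panel spans the same number of log2 units, each point is 1 array, and bars are the scanner's error. Sult2b1, Elovl4, Degs2 and Abca12 were higher on both calcium arrays than on both control arrays, while Sptlc1, Degs1 and Smpd1 spanned at most 0.21 log2 over the 4 arrays.

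Serine palmitoyltransferase makes the first and committed step, and Sptlc1 and Sptlc2 encode its core subunits. Sptlc1 had a relative signal of 2.06 with and 1.91 without calcium in −/− cells, and 2.07 with and 2.05 without calcium in +/+ cells. Its 4 levels spanned 0.12 log2, less than the scanner's error of a difference. Sptlc2 had 0.944 with and 0.813 without calcium in −/− cells, and 1.39 with and 0.962 without calcium in +/+ cells. The +/+ calcium array was the highest, 1.44-fold above the +/+ control array, and the calcium response in −/− cells was 1.16-fold.

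A second and dimmer Sptlc2 probe, on the same strand at chr12:88649448-88649507 (mm9), did not follow the first. It had 0.0993 with and 0.107 without calcium in −/− cells, and 0.0840 with and 0.0896 without calcium in +/+ cells. Its differences with calcium were −0.11 log2 in −/− and −0.09 in +/+ cells, opposite in sign to the brighter probe and within the scanner's error. Its genotype differences were 0.26 without and 0.24 with calcium, where the brighter probe had −0.24 and −0.56. The direction for Sptlc2 therefore depends on the probe.

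Elovl4 makes the very long acyl chains that set barrier ceramides apart from those of other tissues. The relative signal in −/− cells was 2.74 with and 0.357 without calcium, a 7.68-fold difference. In +/+ cells it was 4.14 with and 0.692 without calcium, a 5.99-fold difference. Both calcium levels lay above both control levels, and within each condition −/− cells were the lower. The dimmer of its 2 probes, at chr9:83672645-83672704 (mm9), gave the same order of the 4 arrays, with responses of 7.44-fold in −/− and 4.30-fold in +/+ cells.

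Degs1 and Degs2 act on the same precursor, dihydroceramide: Degs1 inserts the double bond of ordinary ceramide, and Degs2 adds the hydroxyl group of the phytoceramides that are abundant in skin. Degs1 had a relative signal of 16.2 with and 18.1 without calcium in −/− cells, and 15.8 both with and without calcium in +/+ cells. Its 4 levels spanned 0.20 log2, as large as the scanner's error of a difference. Degs2 had 0.393 with and 0.150 without calcium in −/− cells, a 2.63-fold difference. In +/+ cells it had 0.817 with and 0.132 without calcium, a 6.21-fold difference. The control levels differed by 0.19 log2 and the calcium levels by −1.06, −/− minus +/+. The first lay within the scanner's error, which is that of single spots although this probe has 10.

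The Degs2 probe, on the minus strand at chr12:109928501-109928560 (mm9), is printed on 10 spots of every array, which shows the technical spread. The spots ranged over 0.372 to 0.415 in −/− cells with calcium, 0.138 to 0.159 in −/− control cells, 0.762 to 0.856 in +/+ cells with calcium and 0.125 to 0.138 in +/+ control cells. The calcium arrays did not overlap with each other or with a control array, while the 2 control arrays met at 0.138. The SD over the 10 spots was 0.05 to 0.07 log2, which holds no spread between cultures. Over the 279 to 289 repeated probes of an array the median SD was 0.06 log2 on every array. Spots that do not overlap thus show only that spot noise is small beside the difference of 2 arrays.

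**Figure D2:**
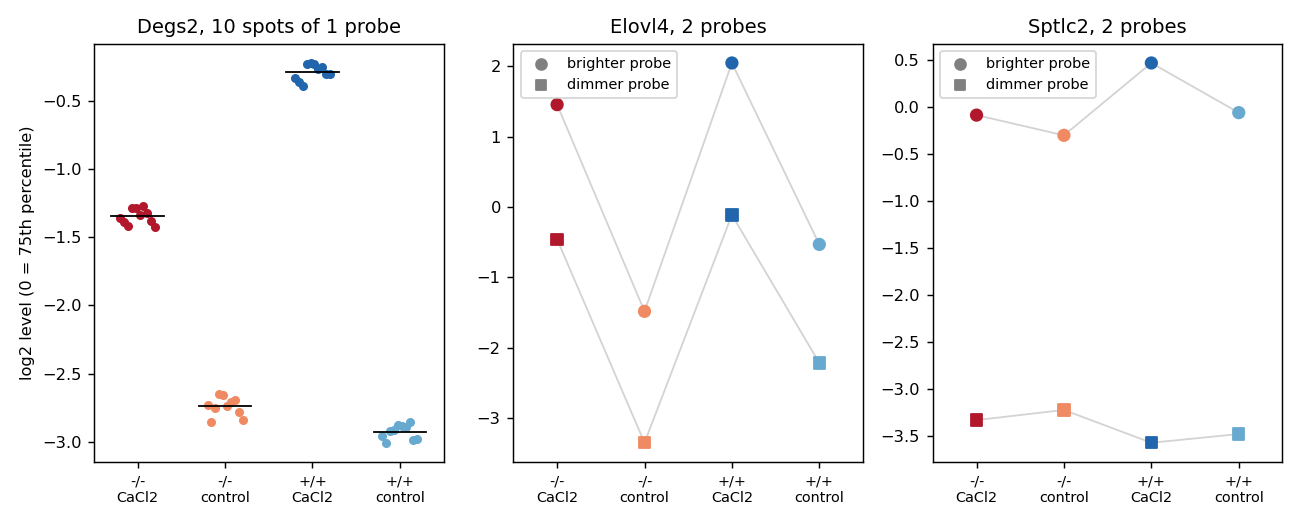
Left, the 10 spots of the Degs2 probe on each array with their mean as a line. Middle and right, both probes of Elovl4 and of Sptlc2, as log2 of relative signal. The Elovl4 probes have the same order over the arrays, and the dimmer Sptlc2 probe lacks the higher +/+ calcium level of the brighter one.

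Ugcg, glucosylceramide synthase, makes the form in which ceramide is loaded into lamellar bodies, and Abca12 loads it. Loss of human ABCA12 causes harlequin ichthyosis, a severe barrier disease. Ugcg had a relative signal of 0.759 with and 0.565 without calcium in −/− cells (1.34-fold), and 0.772 with and 0.473 without calcium in +/+ cells (1.63-fold). It was above its control level in both genotypes without reaching 2-fold. With arrays scaled to basal keratinocyte genes it passed 2-fold in both, at 1.10 log2 in −/− and 1.05 in +/+ cells. In that scaling the median gene itself lay at 0.65 and 0.27, so the pass holds a shift of the whole array. Relative to the median gene in the main scaling, Ugcg was 0.45 log2 in −/− and 0.78 in +/+ cells. Abca12 had 2.50 with and 0.824 without calcium in −/− cells (3.03-fold), and 3.93 with and 1.52 without calcium in +/+ cells (2.59-fold). As with Elovl4, the order was +/+ with calcium, −/− with calcium, +/+ control and −/− control.

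Smpd1, acid sphingomyelinase, releases ceramide from sphingomyelin outside the cells. It had a relative signal of 4.44 with and 5.06 without calcium in −/− cells, and 4.36 with and 4.37 without calcium in +/+ cells. Its calcium responses were −0.19 log2 in −/− and −0.00 in +/+ cells, within the scanner's error.

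Sult2b1 had the highest calcium response of the 9 in both genotypes. The relative signal in −/− cells was 10.4 with and 1.10 without calcium, a 9.46-fold difference. In +/+ cells it was 10.6 with and 1.33 without calcium, a 7.92-fold difference. The 2 calcium levels differed by 0.02 log2 and the 2 control levels by 0.28, the second slightly above the scanner's error of 0.20.

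Ranked from the highest response among all genes compared, Sult2b1 stood at 42 of 21427 in −/− and 72 of 21127 in +/+ cells. Elovl4 stood at 57 and 103, Abca12 at 246 and 307, and Degs2 at 318 and 99. Degs2 is the one of these 4 that ranked lower in −/− than in +/+ cells. Ugcg stood at 2575 and 847, and the other 4 further down.

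**Figure D3:**
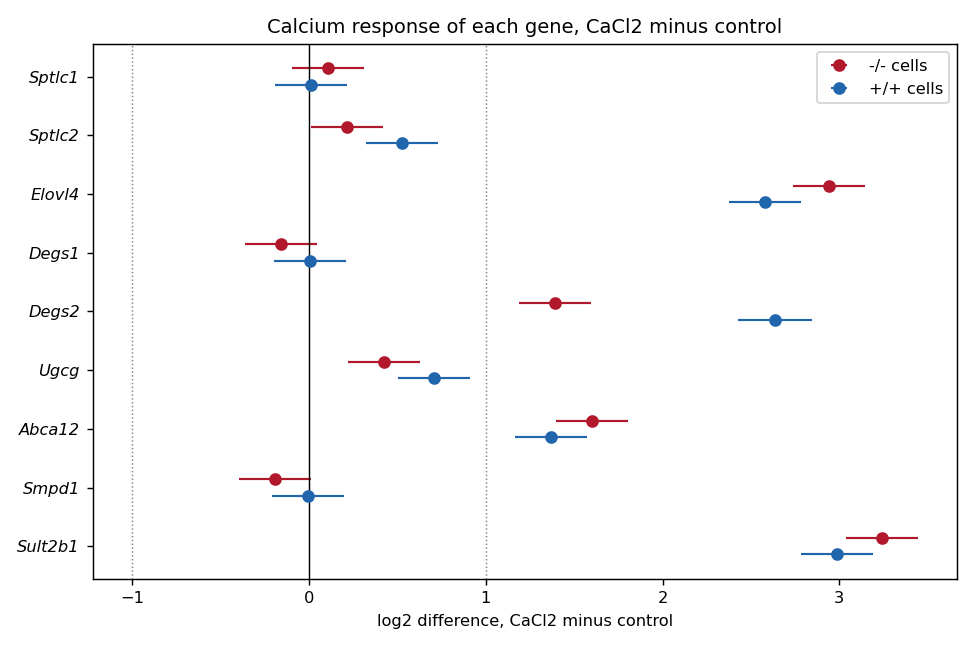
Calcium response of each gene, log2 of CaCl2 over control, in −/− cells (upper point of each row) and +/+ cells (lower point), with the scanner's error as bars and dotted lines at 2-fold. Sult2b1, Elovl4, Degs2 and Abca12 lie beyond 2-fold in both genotypes, and Degs2 is the gene whose 2 bars lie furthest apart.

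Set against each other, the 2 calcium responses differed by less than 2-fold for 8 of the 9 genes. The exception was Degs2, with a response difference, −/− minus +/+, of −1.24 log2, so its response was 2.37-fold smaller in −/− cells. Calls 2-fold below 0 were made for 0.629% of 19225 genes and 2-fold above 0 for 1.91%, and a count of 1 in so short a list is a result about Degs2 and not about the group. For Abca12, Elovl4 and Sult2b1 the difference was 0.23, 0.36 and 0.26, of which 0.36 exceeded the scanner's error of 0.29. For Sptlc2 and Ugcg it was −0.31 and −0.28, and the dimmer Sptlc2 probe had nearly equal responses in both genotypes. The members' median was −0.16, beside 0.02 for all genes. With arrays scaled to basal keratinocyte genes the Degs2 value was −0.91 and no longer reached 2-fold. That scale is the median level of 10 genes on each array, so it depends on which genes lie in the middle. The median of these genes' own response differences was only −0.08 log2. In that scaling Abca12, Elovl4 and Sult2b1 stood at 0.57, 0.70 and 0.59, Sptlc2 and Ugcg turned sign to 0.02 and 0.05, and the median gene lay at 0.35. In the same cultures the summed relative signal of 9 differentiated keratinocyte markers was 15.0 with and 2.48 without calcium in −/− cells, and 25.9 with and 2.18 without calcium in +/+ cells. Of the 7 of these markers well above background on all arrays, 4 had a response at least 2-fold smaller in −/− cells. The part of this in the Degs2 difference was not tested.

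Between genotypes, without calcium, none of the 9 genes differed by 2-fold, where 4.65% of 21345 genes were higher and 4.32% lower in −/− cells. The median gene was −0.18 log2, or −0.09 with quantile and 0.07 with basal keratinocyte scaling, and the members' median was −0.11. Elovl4 was lowest at −0.95 (1.93-fold lower in −/− cells) and Abca12 next at −0.88 (1.85-fold lower). Relative to the median gene they were −0.78 and −0.71. The dimmer Elovl4 probe gave 2.20-fold lower, and with the mean of both probes Elovl4 passed 2-fold at −1.04. Ugcg (0.26), Smpd1 (0.21), Degs1 (0.20) and Degs2 (0.19) lay above 0, and Sptlc1 (−0.11), Sptlc2 (−0.24) and Sult2b1 (−0.28) below it. The basal scaling turned the sign of Sptlc1 (0.14) and Sptlc2 (0.01).

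With calcium 1 of the 9 genes was at least 2-fold lower in −/− cells, where 3.05% of 21563 genes were, and none was 2-fold higher, where 6.55% of genes were. The gene was Degs2, with 0.393 in −/− and 0.817 in +/+ cells, 2.08-fold lower. Relative to the median gene, which was −0.16 log2, this was 1.87-fold. It was just under 2-fold with normexp background correction, and −0.47 log2 with the basal keratinocyte scaling. Abca12 (−0.65), Elovl4 (−0.59) and Sptlc2 (−0.56) were lower by about 1.5-fold, and with the basal scaling these 3 lay at −0.07, −0.00 and 0.03. The remaining 5, Sptlc1, Degs1, Ugcg, Smpd1 and Sult2b1, lay between −0.02 and 0.04. With the basal scaling these 5 lay between 0.56 and 0.62, which turned the sign for Sptlc1, Ugcg and Sult2b1, and the median gene lay at 0.43. The members' median was −0.02.

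**Figure D4:**
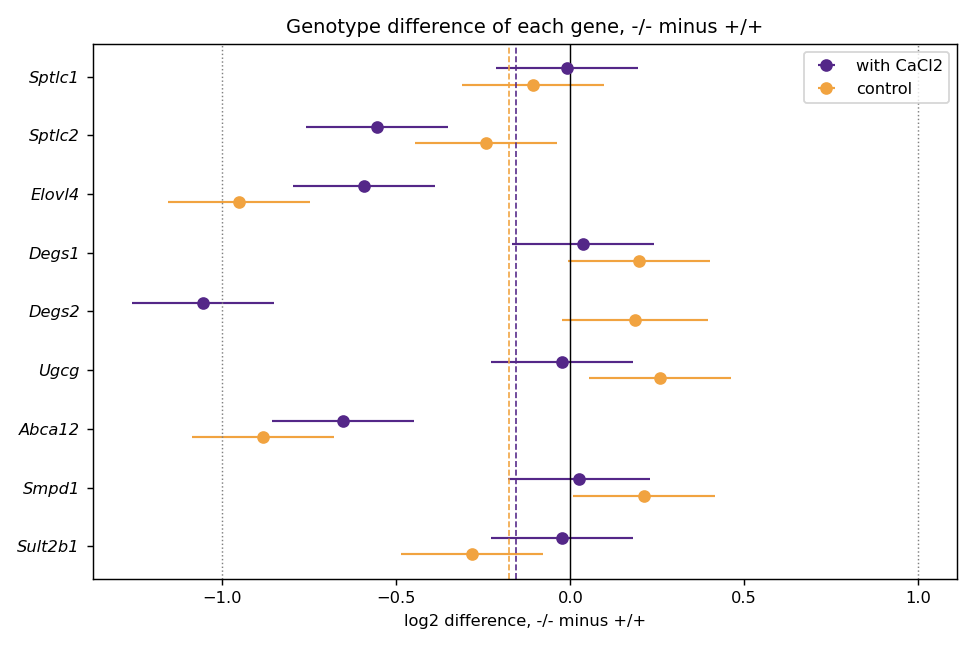
Genotype difference of each gene, log2 of −/− over +/+, with calcium (upper point of each row) and in control cells (lower point), with the scanner's error as bars. Dashed lines mark the median of all genes at −0.16 and −0.18, and dotted lines 2-fold. Elovl4 and Abca12 were low in both conditions, and Degs2 with calcium only.

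Markers of other cells moved with genotype. All 10 basal keratinocyte genes were well above background on every array, so markers of the labelled cell type were present, and markers of other cell types were present beside them. The basal keratinocyte genes' summed relative signal was 262 with and 335 without calcium in −/− cells, and 382 with and 421 without calcium in +/+ cells. These sums are weighted to the brightest genes, Krt5 and Krt14. The list's median calcium response was −0.61 log2 in −/− and −0.45 in +/+ cells. Its median genotype difference was −0.29 without and −0.55 with calcium, with 0 of 10 at 2-fold in either condition. Macrophage markers summed to 35.3 and 22.2 in −/− cells with and without calcium, and 3.52 and 4.66 in +/+ cells, with 9 of 9 at least 2-fold higher in −/− cells in both conditions. Mast cell markers summed to 11.3 in −/− cells in both conditions, and 1.67 and 1.51 in +/+ cells with and without calcium, with 7 of 7 compared at least 2-fold higher. Adipocyte markers summed to 121 and 150 in −/− cells and 32.5 and 44.9 in +/+ cells, with 8 of 8 higher. Fibroblast markers summed to 207 and 192 in −/− cells and 114 and 127 in +/+ cells, with 5 of 9 at least 2-fold higher with calcium and 1 of 9 without. Sebocyte sums were 56.1 to 64.1 over the 4 arrays, with 2 of 8 compared markers at least 2-fold higher in −/− cells with calcium and 3 of 8 without, and none 2-fold lower. Melanocyte sums were 36.6 to 48.4, with 0 of 7 at 2-fold in either condition. Endothelial sums were 1.76 to 2.90, with 0 of 5 at 2-fold with calcium and 1 of 6 2-fold lower in −/− cells without. Not above background on any array were Mcpt1 and Ms4a2 of the mast cell list, Lep of the adipocyte list and Awat1 of the sebocyte list. In pooled RNA fewer keratinocytes and less transcript per keratinocyte cannot be told apart, and the part of these cells in the genotype differences was not tested.

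Other genes of the pathway came from 8 lists with 66 entries, of which 65 were found under their current or older name. In the calcium response 8 of 60 compared were at least 2-fold higher in −/− cells, and 7 of 59 in +/+ cells, where 2.99% and 2.47% of all genes were. None was 2-fold lower, where 0.602% and 1.01% of all genes were. The medians were 0.03 log2 in −/− and 0.04 in +/+ cells, where the median gene had −0.03 and −0.07.

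Among subunits and regulators of serine palmitoyltransferase, 1 of 5 compared was 2-fold higher in −/− cells and none in +/+ cells. It was Sptlc3, an alternative catalytic subunit, with a relative signal of 0.0760 with and 0.0227 without calcium in −/− cells (3.35-fold), and 0.0294 with and 0.0201 without calcium in +/+ cells (1.46-fold). Its response was thus 2.29-fold larger in −/− cells, the opposite direction to Degs2. Both of its control levels were low, not far above the dimmest signals called well above background. Of 6 compared genes for ceramide synthases and the ketosphinganine reductase, only Cers3, the synthase for ultra-long acyl chains, passed 2-fold. It had 9.66 with and 4.46 without calcium in −/− cells (2.17-fold), and 13.9 with and 6.35 without calcium in +/+ cells (2.20-fold).

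Of 12 compared genes of fatty acid elongation and hydroxylation in −/− cells, Cyp4f39 was 2-fold higher. It is the mouse counterpart of the human omega-hydroxylase CYP4F22, whose product is needed for acylceramide. It had 0.0615 with and 0.0122 without calcium in −/− cells (5.05-fold), and 0.0418 with and 0.0233 without calcium in +/+ cells (1.79-fold). Its response was 2.82-fold larger in −/− cells. That value rests on the −/− control level, which lay close to the lowest signal called well above background on that array (−6.54 log2). In +/+ cells the one gene of 11 was the elongase Elovl7, 2.34-fold higher with calcium, and 1.77-fold in −/− cells.

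In acylceramide completion and the oxidation of its linoleate, Pnpla1, which attaches linoleate, was 2.04-fold higher in −/− cells. In +/+ cells it was at least 1.92-fold higher, with the control array not well above background. Aloxe3, the epidermal lipoxygenase that acts second on that linoleate, had 0.615 with and 0.324 without calcium in −/− cells (1.90-fold). In +/+ cells it had 2.21 with and 0.588 without calcium (3.76-fold). Its response difference was −0.98 log2, on the same side as Degs2, and with calcium it was 3.59-fold lower in −/− cells. Sdr9c7, a dehydrogenase of the same pathway, was at least 2.30-fold lower in −/− cells without calcium. Its −/− control array was not well above background. Its +/+ control level of 0.0248 was not far above the dimmest signals so called.

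In sphingomyelin and glucosylceramide turnover 1 of 10 genes passed 2-fold in each genotype. It was Smpd3, a neutral sphingomyelinase, 4.50-fold higher with calcium in −/− cells and at least 14.0-fold in +/+ cells, where the control array was not well above background. Without calcium it was at least 2.41-fold higher in −/− cells. Of 10 compared genes of ceramidases and sphingosine metabolism, Acer1, the alkaline ceramidase of differentiating epidermis, was 3.63-fold higher with calcium in −/− and 4.73-fold in +/+ cells. Acer1 was also higher in −/− than in +/+ cells, by 2.63-fold without and 2.01-fold with calcium. The 4.73-fold and 2.63-fold values rest on its +/+ control level of 0.0188. That level was not far above the dimmest signals called well above background. Acer2, a related ceramidase, was at least 2.55-fold higher in −/− cells with calcium. The probe read was not well above background in +/+ cells with calcium, so the directions of its 2 probes could not be compared there. They were opposite in the calcium response of −/− cells and between genotypes without calcium.

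In sterol sulfation no partner of Sult2b1 passed 2-fold with calcium in either genotype. These included Sts, the steroid sulfatase that removes the sulfate again, and Papss2, which makes the sulfate donor. The sulfotransferase genes Sult1e1 and Sult2a1 were not well above background on any array. Of the lamellar body list, 2 of 7 genes passed 2-fold in each genotype. Tmem79, a lamellar body membrane protein, was 3.11-fold higher with calcium in −/− and 2.72-fold in +/+ cells. Cdsn, the adhesion protein corneodesmosin that lamellar bodies secrete, was 12.7-fold higher in −/− and 10.1-fold in +/+ cells.

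**Figure D5:**
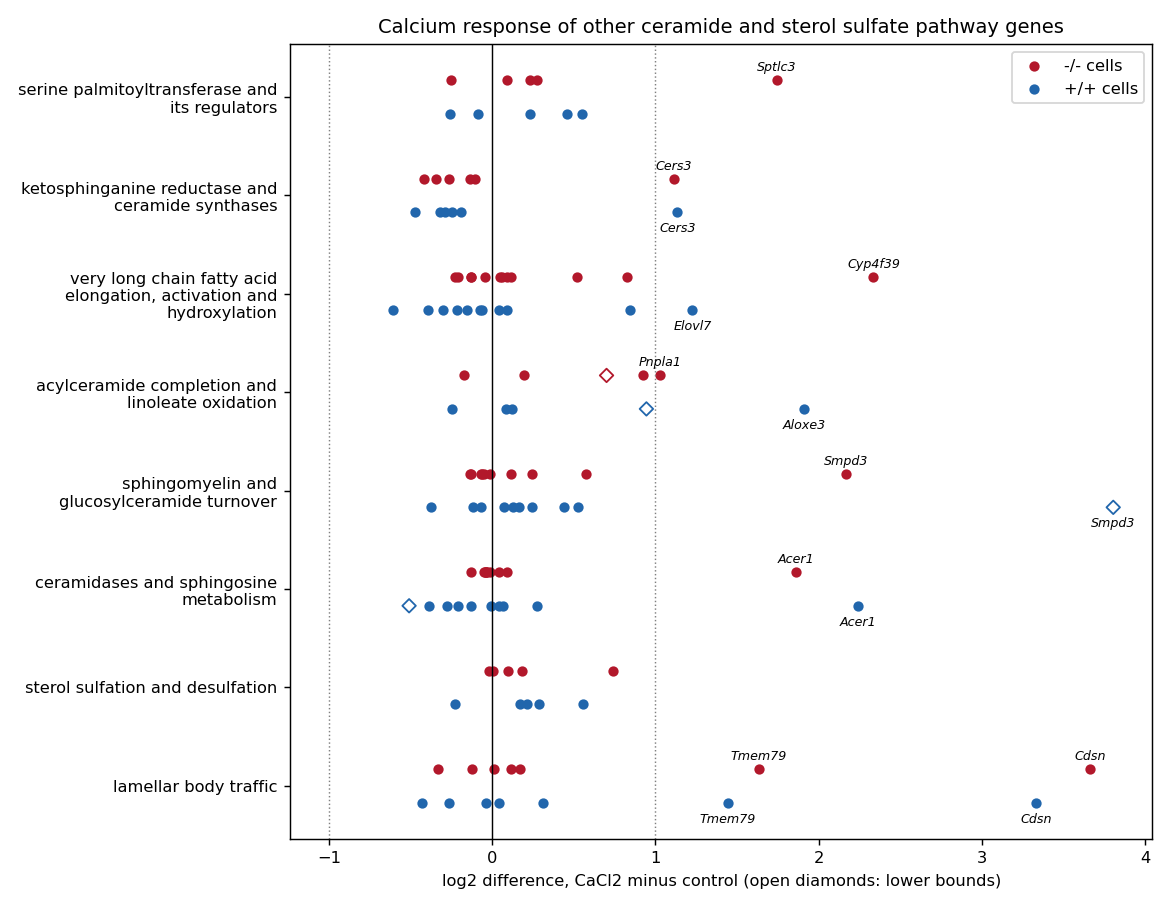
Calcium response, log2 of CaCl2 over control, of the other pathway genes by list, with −/− cells (upper points) and +/+ cells (lower points), open diamonds for lower bounds and dotted lines at 2-fold. Genes past 2-fold are named. Most genes lie within 0.6 log2 of 0, and those past 2-fold are all on the higher side.

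Between genotypes, 6 of 60 pathway genes were at least 2-fold higher and 1 lower in −/− cells without calcium, where 4.65% of all genes were higher and 4.32% lower. With calcium 8 were higher and 1 lower, where 6.55% of all genes were higher and 3.05% lower. The medians were −0.00 and 0.01 log2, against −0.18 and −0.16 for all genes. The largest difference was in Sult1a1, a sulfotransferase for phenols, with 0.694 in −/− and 0.0588 in +/+ cells with calcium (11.8-fold), and 0.416 and 0.0507 without calcium (8.20-fold). Acsl1, which activates long-chain fatty acids and is abundant in fat cells, was 3.92-fold higher with and 2.97-fold without calcium. Abcg1, a sterol exporter abundant in macrophages, was 2.78-fold and 2.60-fold higher. Elovl3, an elongase of sebaceous and brown fat cells, was at least 4.10-fold and 2.59-fold higher, being not well above background in +/+ cells. The macrophage and adipocyte markers given above moved in the same direction, and their part was not tested. Elovl3 is also on the sebocyte list given above, where it counts among the markers higher in −/− cells. Sptlc3 was 2.58-fold higher in −/− cells with calcium, and Cdsn 2.06-fold.

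Genes with the most similar pattern were sought for the 4 members whose levels spanned at least 1 log2 unit. Likeness was the root mean square distance between mean-centred log2 levels over the 4 arrays, among 14393 genes with a gene symbol, other than predicted genes, that were well above background on all of them, so it is a description of 4 values. Nearest to Sult2b1 were Krt16 (0.12), Clic3 (0.13) and Spink5 (0.14). Nearest to Elovl4 were Ly6d (0.14), Scnn1a (0.17) and Mall (0.18). Nearest to Abca12 were the plakin genes Evpl (0.06) and Ppl (0.07), and Crb3 (0.08). Nearest to Degs2 were Lmo7 (0.15), Cpeb2 (0.18) and Tchhl1 (0.20). Like Degs2, these 3 had smaller responses in −/− cells (3.08-fold, 2.45-fold and 2.22-fold) than in +/+ cells (6.99-fold, 4.45-fold and 6.43-fold), as the choice of neighbours makes them.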

How the data were processed

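The deposited scanner signals are an intensity written by Agilent Feature Extraction 11.5.1.1, background-subtracted and detrended within each array and not scaled between arrays, per the file headers. The authors' value table is a ratio, each deposited signal over the 75th percentile of its array, from which it differed by at most 0.000583 in relative terms. Its medians were 0.0645, 0.0612, 0.0623 and 0.0660 in −/− cells with and without calcium and +/+ cells with and without calcium. The table is linear and not centred. All 4 arrays share 1 slide. The 75th percentiles were 2638 to 3299 intensity units and 67.0% to 68.6% of probes were well above background.

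From the signals log2 was taken, the 75th percentile of the 43020 spots that are not controls was taken off for each array, and 105 to 116 spots an array with an outlier flag on the spot were dropped. The −/− control spot of Sult2b1 has a flag on its local background only and was kept. Spots of a probe were averaged and a gene was read from its brightest probe. Probes were named through their accession in RefSeq (27508) or kept the name in the file (11921). Genes entered a comparison when either array had them well above background, and a dim array gave a lower bound. No test was run. The 9 members and all lists were chosen with earlier results of these data known, so no list is independent support. All 9 members were named, and other pathway genes where at least 2-fold different in any comparison. Cers1, Flg and Col1a1 of the lists were not analysed here. Alternatives were the authors' value table, averaging the probes of a gene, basal keratinocyte markers as the scale, quantile scaling, normexp (offset 50), and genes well above background on both arrays. The basal scale was the median level of those markers on each array. The code was tested on simulated data. The software was Python 3.11.15, numpy 2.4.6, pandas 2.3.3, matplotlib 3.10.9, R 4.3.3 and limma 3.58.1.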

Additional observations from a re-analysis of the deposited data

Results flagged for a closer look

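Degs1 had calcium responses of opposite sign in the genotypes, −0.16 log2 in −/− and 0.0057 in +/+ cells, both within the scanner's error, and the difference was not tested. Sdr9c7 was higher with calcium in −/− cells by at least 0.70 log2, its control array not being well above background, and lay at −0.25 in +/+ cells. Its other signals were not far above the dimmest called well above background, and this difference was not tested either.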

How the results depend on the processing

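The 4 genes at least 2-fold higher with calcium in both genotypes were so under all 6 alternatives, but some of these could not change the outcome. The value table, scaled by its own 75th percentile, gave the same values as the signals. The filter on both arrays left the members as they were, since all were well above background on every array. Averaging probes could move only Elovl4 of the 4, the one with 2 probes. Of 45 member differences 15 changed sign under at least 1 alternative, none of them past 2-fold, and 6 calls at 2-fold changed. Scaling to basal keratinocyte markers moved the members' median to 1.10 and 1.05 log2 for calcium in −/− and +/+ cells (main 0.43 and 0.71, with Ugcg past 2-fold in both), to 0.14 and 0.56 for genotype without and with calcium (main −0.11 and −0.02), and to 0.18 for the response difference (main −0.16). The median of all genes moved too, to 0.65 and 0.27 for calcium in −/− and +/+ cells. It moved to 0.07 and 0.43 for genotype without and with calcium, and to 0.35 for the response difference. The basal scaling left 0 members 2-fold lower with calcium and 0 for the response difference (main 1 each), since Degs2 stood at −0.47 and −0.91. The median of the basal markers' own response differences was −0.08 log2. Normexp also left 0 lower with calcium, with Degs2 just under 2-fold. The mean of a gene's probes put 1 member, Elovl4, 2-fold lower without calcium (main 0).

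Counts over all genes moved more. Calcium in −/− cells gave 640 higher and 129 lower, against 319 and 26 with normexp, 3412 and 18 with basal scaling, and 59 lower among genes well above background on both arrays. Calcium in +/+ cells gave 522 and 214, against 328 and 62 with normexp, 917 and 82 with basal scaling, and 128 lower on both arrays. Genotype without calcium gave 992 and 922, against 655 and 188 with normexp, with 399 lower under quantile scaling, 386 under basal scaling and 525 on both arrays. Genotype with calcium gave 1413 and 658, against 3532 and 175 with basal scaling and 374 lower with normexp. The response difference gave 367 above and 121 below, against 115 and 67 with normexp, 187 and 184 with quantile and 1038 and 55 with basal scaling. The causes were not tested. No paired analysis was possible because each group is 1 array, and that number limits the precision.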
